A study of Homo sapiens with 21 samples.

Results

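Nucleolar ribosome assembly factors are the proteins that transcribe ribosomal RNA, modify and cut it, and fold it with ribosomal proteins into the small and the large ribosomal subunit. The 47 genes described here were taken by symbol from the deposited expression table, which lists 34021 genes. All 47 had a row, and all 47 entered the test, which took the 13775 genes that reached 1 FPKM in 3 or more libraries. UTP20, WDR12 and GNL3L reached 1 FPKM in the control libraries only, so they passed the filter through the group in which they were high. FPKM, the unit to which the deposited values point, scales the fragments counted at a gene to gene length and library size.

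The libraries come from H1975, an established human lung adenocarcinoma line with mutated EGFR, the gene of the epidermal growth factor receptor, labelled as grown for 8 days, in 3 groups of 3 libraries. DMSO_EV cells were of wild-type genotype and received vehicle and EV, an abbreviation the submitters did not spell out. Osi_Lin_EV cells were also wild type and received EV, 500 nM osimertinib, which inhibits mutant EGFR, and 500 nM linsitinib, a kinase inhibitor of IGF1R (the receptor of insulin-like growth factors) and of the insulin receptor. Osi_cIGF1R cells overexpressed cIGF1R, a circular RNA from the IGF1R gene, and received 500 nM osimertinib without linsitinib or EV on the label. The treated groups therefore differ from each other in linsitinib, EV and cIGF1R at once, and no group with osimertinib and EV alone is analysed here. All 9 libraries derive from a single line, and nothing on the labels shows that libraries sharing a group were separate cultures, so p-values measure the spread between libraries, which may be technical.

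Ribosome assembly starts in the nucleolus, where RNA polymerase I transcribes a long precursor of most ribosomal RNAs. Small nucleolar ribonucleoproteins (snoRNPs) modify this precursor, the small subunit processome cleaves and folds its small subunit part, and a separate series of helicases, GTPases and scaffold proteins builds the large subunit. Output of this pathway is coupled to growth signalling, and many of its genes are known to be transcribed together in proliferating cells.

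Some promoters of these genes hold sequence words that the choice of the genes did not use, each word in a minority of the windows. RefSeq promoter windows on GRCh38.p14, from 250 bases before to 50 bases after the listed start site, were found for 39 of the 47 genes. The E-box CACGTG, a palindrome known to be bound by MYC with MAX and by related factors, stood in 15 of these 39 windows (38.5%), against 10.3% of the 9908 windows of tested genes and 7.43% of all 27305 windows. Searched on both strands, CCGGAAG, a word bound by ETS factors, was in 16 windows (41.0%, against 19.8% of the windows of tested genes). TGCGCA, the core of the NRF1 motif, was in 12 windows (30.8%, against 13.6%). No matches of different words overlapped each other in the 39 windows. Of the 17 CACGTG matches, 14 began between 20 bases before and 50 bases after the start site (82.4%), against 21.6% of the 1177 matches in the windows of tested genes. That zone was chosen after the positions were seen, and base composition was not matched. A match describes letters only and says nothing about binding in these cells.

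To show these words in place, 30 bases around the E-box are given 5′ to 3′ on the strand of each gene, with the motif in capitals. They are shown for FBL, BYSL, MRTO4, RRP9 and UTP4, among the genes with a match that fell far in Osi_cIGF1R, and for NOP10, with a small fall and a pair of matches.
FBL, chr19:39846356-39846385, minus strand: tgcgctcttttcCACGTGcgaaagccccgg
BYSL, chr6:41921515-41921544, plus strand: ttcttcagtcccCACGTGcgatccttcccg
MRTO4, chr1:19251807-19251836, plus strand: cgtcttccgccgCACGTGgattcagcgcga
RRP9, chr3:51941892-51941921, minus strand: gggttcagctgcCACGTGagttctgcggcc
UTP4, chr16:69132621-69132650, plus strand: agagcgcgcgcgCACGTGgggccggggcgg
NOP10, chr15:34343289-34343318, minus strand: gtagggacactcCACGTGttttagcctgca
NOP10, chr15:34343130-34343159, minus strand: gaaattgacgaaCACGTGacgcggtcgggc
Counting the start site as position 1 and the base before it as -1, the match began at 7 in FBL, 29 in BYSL and 15 in MRTO4. For BYSL the start site of the promoter table lies inside the span that the gene annotation gives, so its position is counted from that internal start. The match began at -5 in RRP9, at -16 in UTP4, and at -170 and -11 in NOP10. The 24 genes whose windows lacked the word also fell in Osi_cIGF1R.

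In DMSO_EV the summed level of the 47 genes was 2055 ± 93.7 FPKM, in Osi_Lin_EV it was 1114 ± 28.5 FPKM and in Osi_cIGF1R it was 667 ± 61.0 FPKM (SD, n = 3). These sums were 0.460%, 0.260% and 0.188% of all FPKM of their libraries. The 3 groups did not overlap: the lowest DMSO_EV sum was 1994 FPKM, the Osi_Lin_EV sums ran from 1084 to 1141, and the highest Osi_cIGF1R sum was 737. NPM1 alone supplied 674 to 812 FPKM of the control sums, and without it the sums were 1317 ± 35.7, 652 ± 20.0 and 474 ± 36.3 FPKM. In such bulk samples, fewer cells of a type and less RNA per cell cannot be told apart. MKI67, a gene of proliferating cells, was at 23.3 ± 1.84, 1.03 ± 0.211 and 0.775 ± 0.210 FPKM in the same order, and its part in the result was not tested.

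Library totals were 429553 to 474156 FPKM in DMSO_EV, 423319 to 432563 in Osi_Lin_EV and 338034 to 381311 in Osi_cIGF1R, and read depth is unknown. Mitochondrial transcripts held 23.8%, 22.3% and 6.70% of the FPKM on average. With every library rescaled to equal totals without mitochondrial genes, the counts of assembly genes lower were 45 and 47 in the comparisons with DMSO_EV, as without rescaling, and 35 between the treated groups. DMSO_EV replicate 2 stood apart in short noncoding RNAs, with 443 FPKM of RN7SL1 against 36.1 and 46.4 in the other controls, and Osi_cIGF1R replicate 1 had 53.2 FPKM against 3.16 and 6.37. Without both libraries, 44 of the 47 genes passed the filter, and 41, 44 and 28 of them were lower in Osi_Lin_EV against DMSO_EV, Osi_cIGF1R against DMSO_EV and Osi_cIGF1R against Osi_Lin_EV. All 6 epithelial markers (EPCAM, CDH1, KRT7, KRT8, KRT18 and KRT19) were present, with sums of 11203 to 12463, 13229 to 14404 and 12439 to 15201 FPKM in the 3 groups. Leukocyte, fibroblast and endothelial markers, 12 of 15 with a row, summed to at most 8.04 FPKM per list and library. PTPRC, CD3E, LYZ, COL1A2, COL3A1 and DCN stayed at or near 0, while 3 markers varied with the groups. In the order DMSO_EV, Osi_Lin_EV and Osi_cIGF1R, the mean FPKM was 3.14, 6.57 and 7.28 for CSF1R, 3.58, 3.35 and 5.70 for COL1A1, and 3.37, 0.114 and 0.482 for CDH5, and their part in the results was not tested. One extraction protocol on the labels covers all samples of the series and names RNase R, which digests linear RNA. It also gives the length of treatment as 3 days, where the labels of these libraries give 8. Whether these libraries had RNase R is not settled, and with it levels would depend on resistance to the enzyme.

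**Figure D1:**
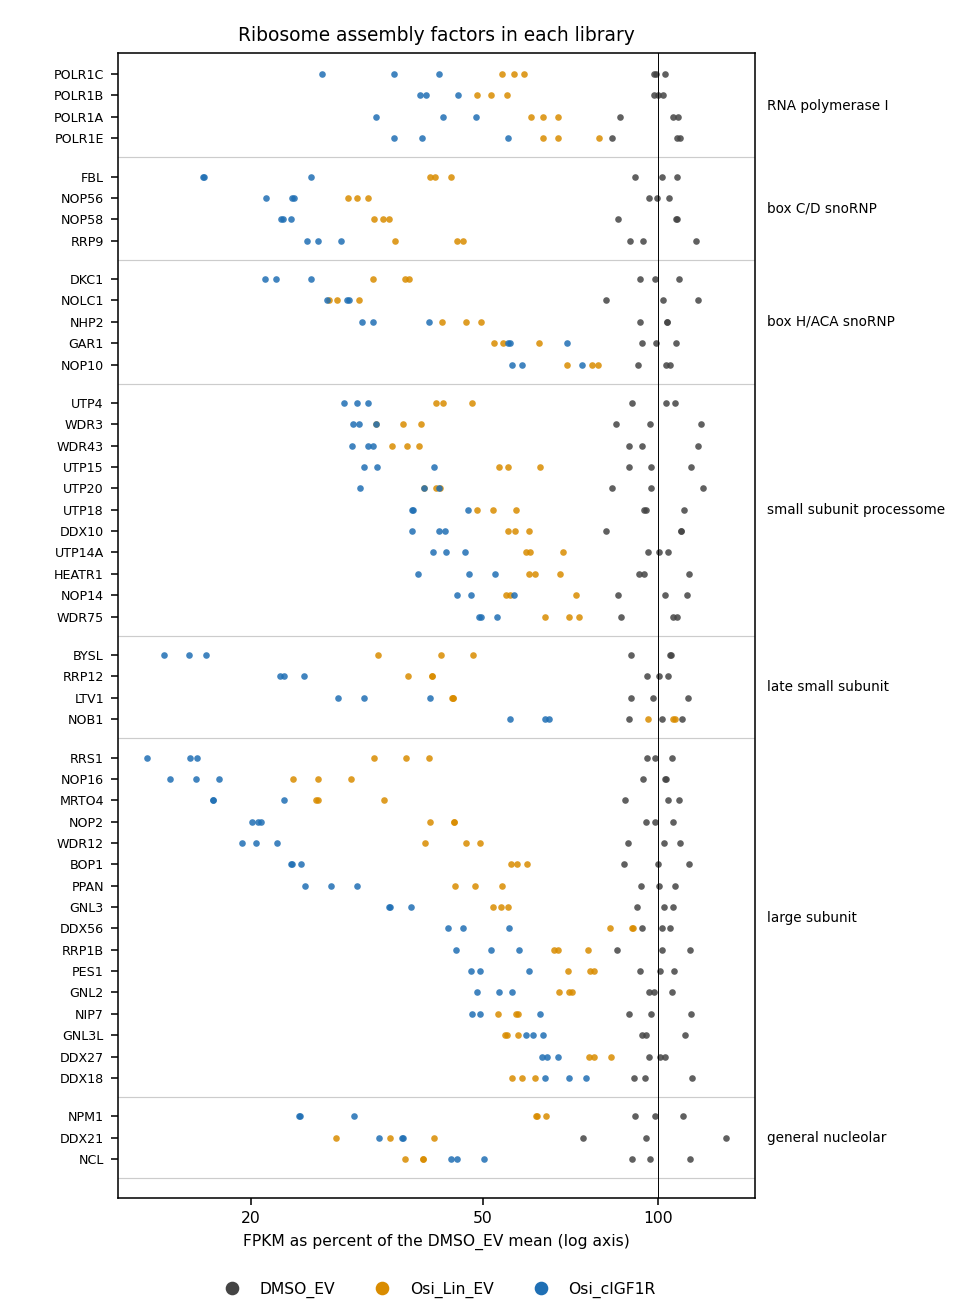
FPKM of each of the 47 genes in each of the 9 libraries as a percent of the gene's DMSO_EV mean (log axis), grouped by role. The Osi_Lin_EV points lie left of the control points for 46 genes, with NOB1 the exception, and the Osi_cIGF1R points lie left of the control points for all 47.

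The first comparison asks how the genes stood after combined inhibition of EGFR and IGF1R. In Osi_Lin_EV, 45 of the 47 genes were lower than in DMSO_EV, 0 were higher, and NOB1 and DDX56 did not pass the threshold. Calls are limma's at a Benjamini-Hochberg adjusted p under 0.05, fitted on log2(FPKM + 1) over all tested genes, a scale that understates the change of low genes. Falls and rises are ranked on this scale, and the order by percent of the mean can differ where a gene is near 1 FPKM. Of all tested genes, 23.5% were lower and 29.0% higher. The median log2 fold change of the 47 was -0.76, against 0.05 over all tested genes, and the values ran from -1.82 for NOP16 to 0.04 for NOB1. A fall of at least 1 on the log2 scale was found for 19 genes, against 5.54% of all tested genes, and 46 genes had every treated library below every control library, against 27.6%. Without the 3 genes that reached 1 FPKM in the controls only, 42 of 44 were lower. The 46 genes without overlap include those 3.

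The second comparison asks how they stood under osimertinib with cIGF1R overexpression. In Osi_cIGF1R all 47 genes were lower than in DMSO_EV, where 35.8% of all tested genes were lower and 33.1% higher. Their median log2 fold change was -1.17, against -0.03 over all tested genes, and the range ran from -2.46 for NOP16 to -0.38 for GNL3L. By percent of the control mean GNL3L, a low gene, kept 61.2%, below DDX18 at 69.8%. For 28 genes the fall was at least 1 on the log2 scale, against 11.4% of all tested genes. Groups did not overlap for any of the 47 genes, and 36.5% of all tested genes had non-overlapping groups in that direction. Leaving aside UTP20, WDR12 and GNL3L, which passed the filter through the controls only, all 44 other genes were lower, with a median of -1.35. WDR12 is among the 28 with a fall of at least 1. This comparison and the first share their control libraries, so their values for a gene are given side by side and are not independent.

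The third comparison sets the treated groups against each other. In Osi_cIGF1R, 34 of the 47 genes were lower than in Osi_Lin_EV, NCL was higher, and 12 did not pass the threshold. Of all tested genes, 34.8% were lower and 25.9% higher. The median log2 fold change of the 47 was -0.40, against -0.09 over all tested genes, with a range from -1.26 to 0.26. A fall of at least 1 on the log2 scale was found for NPM1, BOP1, BYSL and FBL, against 4.38% of all tested genes. In 35 genes every Osi_cIGF1R library lay below every Osi_Lin_EV library, which in turn lay below every DMSO_EV library, an order shown by 10.6% of all tested genes. Of the 47 genes, 32 were lower in all 3 comparisons, against 8.26% of all tested genes. Leaving aside UTP20, WDR12 and GNL3L, 33 of 44 were lower between the treated groups and 1 was higher. WDR12 is among the 35 ordered genes and the 32, while UTP20 and GNL3L are in neither count.

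**Figure D2:**
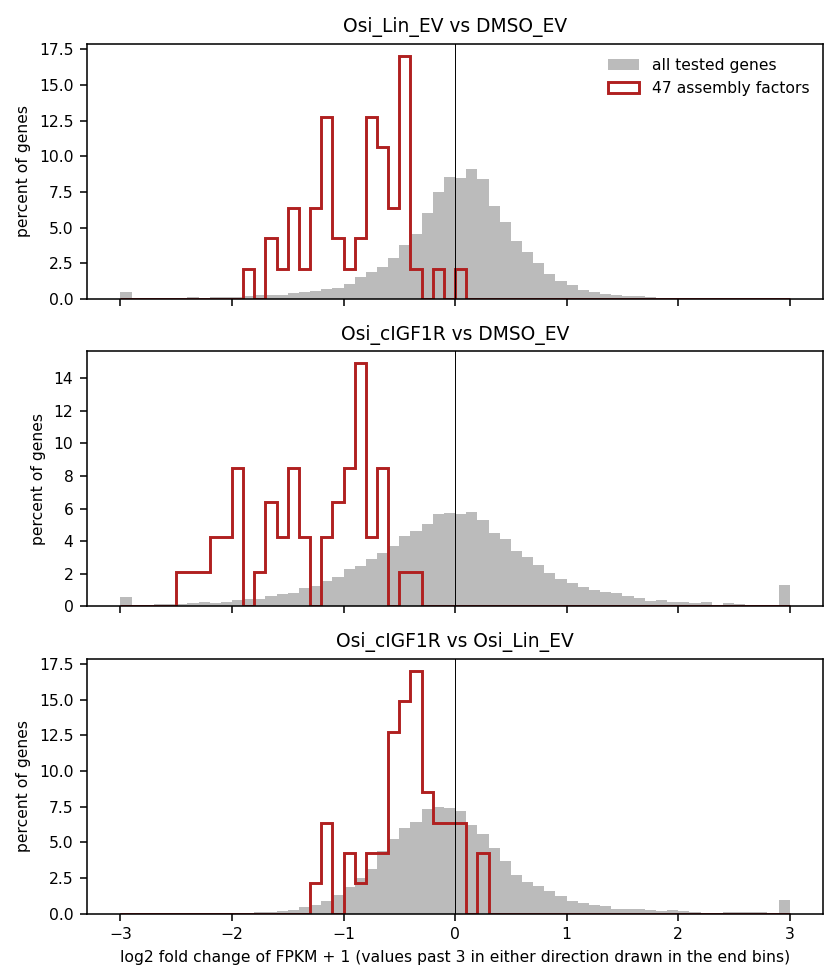
Share of genes (percent) by log2 fold change of FPKM + 1 in the 3 comparisons, for all 13775 tested genes (grey) and the 47 assembly factors (red outline). The red outline lies mostly left of 0 in each panel, with medians of -0.76, -1.17 and -0.40 from top to bottom.

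RNA polymerase I has 4 subunits among the 47 genes. All 4 fell in both treated groups, where 23.5% and 35.8% of all tested genes were lower. Of the subunits of this polymerase outside the 47, POLR1D was higher in Osi_Lin_EV, by 0.39. POLR1H did not pass the threshold there (-0.02). In Osi_cIGF1R POLR1D did not pass it (-0.03) and POLR1H was lower, by 0.63. POLR1F and POLR1G were lower in both treated groups. POLR1A, the largest catalytic subunit (chr2:86020216-86105886), was at 3.66, 4.60 and 4.50 FPKM in DMSO_EV, 2.86, 2.57 and 2.70 in Osi_Lin_EV and 2.07, 1.82 and 1.40 in Osi_cIGF1R. The 3 groups stood in that order without overlap. POLR1C, which RNA polymerase III also uses, fell by 0.76 ± 0.12 (SE) on the log2 scale in Osi_Lin_EV and by 1.40 ± 0.12 in Osi_cIGF1R, keeping 56.4% and 34.6% of its control mean. Its annotated span overlaps XPO5 on the other strand, which matters because the use of strand in counting is not given in the sources used here. XPO5 averaged 10.2 FPKM in DMSO_EV, 6.94 in Osi_Lin_EV and 6.68 in Osi_cIGF1R, and its part in the values of POLR1C was not tested. POLR1E, a subunit that helps the enzyme start and elongate, had the smallest fall of the 4 in Osi_Lin_EV. It was at 4.63, 6.05 and 5.98 FPKM in the controls and at 3.53, 4.40 and 3.73 with both inhibitors, a log2 fold change of -0.42 ± 0.13 (limma adjusted p = 0.0186). These groups came close without overlapping, and the call was lost under 7 of 20 alternatives, among them no filter and leaving out DMSO_EV replicate 2 or 3 or Osi_Lin_EV replicate 1 or 3 (highest adjusted p over the alternatives 0.0838). POLR1B, the second catalytic subunit, kept 51.8% and 41.4%, and its fall in Osi_cIGF1R against DMSO_EV was by 0.87 ± 0.09. Between the treated groups POLR1A, POLR1C and POLR1E fell, by 0.43, 0.64 and 0.53 on the log2 scale, while POLR1B stood at -0.20 ± 0.09 (adjusted p = 0.0698).

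Box C/D snoRNPs, which carry out methylation of ribosomal RNA, have 4 proteins among the 47 genes. All 4 fell in each of the 3 comparisons. NOP56, a core scaffold of these particles (chr20:2652632-2658393), was at 92.8, 86.0 and 88.5 FPKM in DMSO_EV, 27.2, 28.3 and 26.1 in Osi_Lin_EV and 21.1, 21.0 and 18.9 in Osi_cIGF1R. The wide gap lay between the controls and both treated groups, and the latter differed by a log2 fold change of -0.40 ± 0.09. Its partner NOP58 had nearly the same shares, with 33.6% and 22.9% of the DMSO_EV mean left, against 30.6% and 22.8% for NOP56. FBL, the methyltransferase fibrillarin, was at 174, 164 and 148 FPKM in DMSO_EV, 65.7, 71.4 and 67.1 in Osi_Lin_EV and 26.9, 27.0 and 41.1 in Osi_cIGF1R. Its 3 groups were evenly spaced on the log2 scale, with falls by 1.24 ± 0.14 from the controls to Osi_Lin_EV and by 1.11 ± 0.14 from there to Osi_cIGF1R. Osi_cIGF1R replicate 3 was the highest library of its group and still lay below every Osi_Lin_EV library. RRP9, specific to the U3 particle, had the smallest falls from the controls of these 4, by 1.12 ± 0.12 and 1.66 ± 0.12 on the log2 scale.

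Proteins of box H/ACA snoRNPs, which convert uridines of ribosomal RNA to pseudouridine, all fell in both treated groups but by unequal amounts. The shares of all tested genes lower in these groups were 23.5% and 35.8%. DKC1, the pseudouridine synthase dyskerin (chrX:154762864-154777689), was at 31.4, 33.3 and 36.6 FPKM in DMSO_EV, 12.6, 12.4 and 11.0 in Osi_Lin_EV and 7.16, 7.46 and 8.56 in Osi_cIGF1R. Its fall in Osi_cIGF1R was by 1.99 ± 0.10 on the log2 scale, the largest of the 5 genes. NOP10, a small core protein of the same particle, was at 60.3, 61.4 and 54.1 FPKM in DMSO_EV, 45.0, 46.2 and 40.9 in Osi_Lin_EV and 32.9, 34.2 and 43.4 in Osi_cIGF1R. The treated groups overlapped through Osi_cIGF1R replicate 3, and the log2 fold change between them was -0.26 ± 0.11 (adjusted p = 0.0585, and 0.0030 to 0.248 over the alternatives). Leaving out that library moved the difference past the threshold, as did quantile normalization and equal totals without mitochondrial genes.

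The other core proteins of that particle, NHP2 and GAR1, parted between the treated groups. NHP2 kept 46.3% of its control mean in Osi_Lin_EV and 34.6% in Osi_cIGF1R, and the treated groups differed by a log2 fold change of -0.42 ± 0.11. GAR1 kept 56.3% and 60.2%, its fall in Osi_cIGF1R was by 0.65 ± 0.11 (NOP10 kept 62.8% there), and the difference between the treated groups was 0.08 ± 0.11, with overlapping libraries. NOLC1, a chaperone of snoRNPs, had the largest fall of this class in Osi_Lin_EV, with 24.4, 30.5 and 35.0 FPKM in DMSO_EV, 9.20, 8.42 and 8.16 in Osi_Lin_EV and 8.77, 8.85 and 8.12 in Osi_cIGF1R. Both treated groups lay at the same level, apart by -0.0013 ± 0.12 on the log2 scale (95% confidence interval -0.25 to 0.25).

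**Figure D3:**
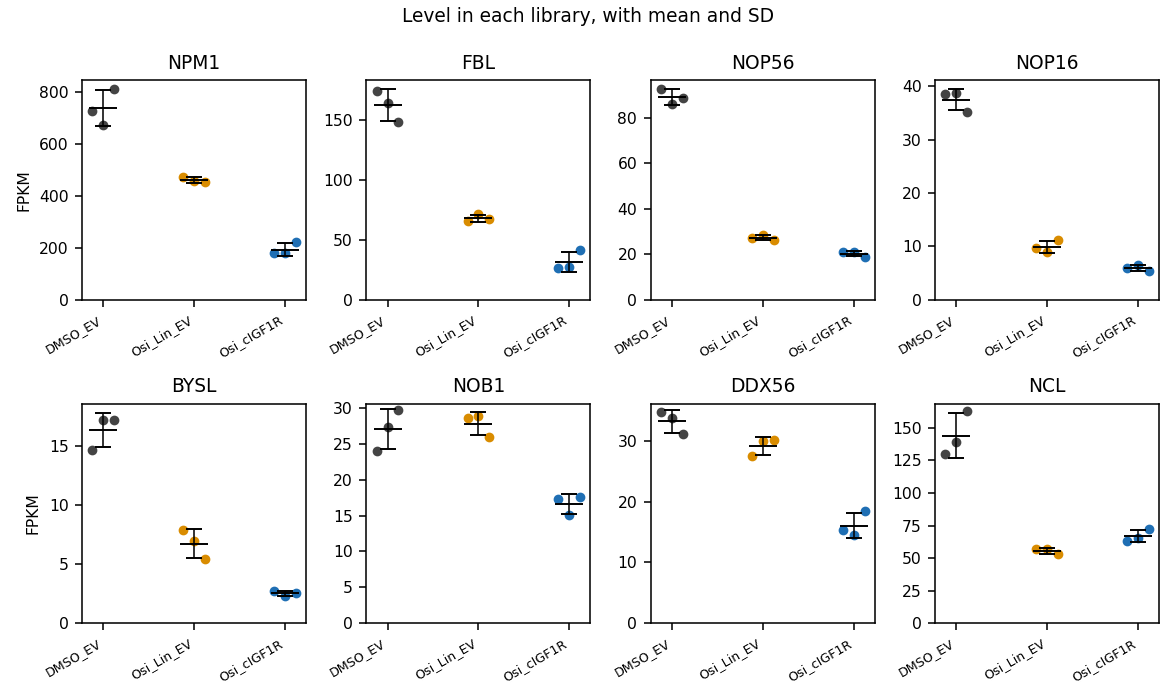
FPKM of 8 genes in each library (points), with the mean and SD of the 3 libraries (bars), on axes that start at 0. NPM1, FBL and BYSL step down from group to group, NOB1 and DDX56 are low in Osi_cIGF1R, and NCL is lowest in Osi_Lin_EV.

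The small subunit processome has 11 genes among the 47. All 11 were lower in both treated groups, against 23.5% and 35.8% of all tested genes. Between the treated groups 7 of them passed the threshold as lower in Osi_cIGF1R, against 34.8% of all tested genes. All log2 fold changes of the class there were negative, from -0.48 to -0.07. WDR43, part of the complex that binds nascent ribosomal RNA first, had the lowest log2 fold change of FPKM + 1 of the class in Osi_Lin_EV, with 37.0% of its control mean left against 36.2% for WDR3. It was at 11.1, 11.6 and 14.6 FPKM in DMSO_EV, 4.83, 4.60 and 4.35 in Osi_Lin_EV and 3.95, 4.02 and 3.71 in Osi_cIGF1R. Treated libraries did not overlap each other, yet the difference between them, -0.19 ± 0.11, did not pass the threshold (adjusted p = 0.129). UTP4, a partner of WDR43 in that complex, had the largest fall in Osi_cIGF1R, with 18.9, 22.4 and 21.6 FPKM in the controls, 10.0, 8.69 and 8.96 in Osi_Lin_EV and 6.37, 6.66 and 6.06 in Osi_cIGF1R. WDR75, a further partner, had the smallest fall in Osi_Lin_EV and kept 69.1% of its control mean there and 50.6% in Osi_cIGF1R. UTP15 and HEATR1, also of that complex, kept 57.0% and 63.1% in Osi_Lin_EV and 35.2% and 46.3% in Osi_cIGF1R.

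The other processome genes fell within the same range. UTP14A, which helps to activate a helicase late in the processome, had the lowest log2 fold change of FPKM + 1 between the treated groups in this class, with 15.6, 13.5 and 13.7 FPKM in Osi_Lin_EV and 10.6, 9.34 and 9.82 in Osi_cIGF1R, a fall by 0.48 ± 0.09 on the log2 scale. It kept 69.6% of the Osi_Lin_EV mean, against 69.0% for UTP4 and 61.6% for UTP15. UTP20, a large scaffold protein, was at 1.84, 2.15 and 2.64 FPKM in the controls and between 0.681 and 0.934 FPKM in all 6 treated libraries. Its treated groups overlapped, with a log2 fold change of -0.07 ± 0.11 between them, the closest to 0 of the class. In Osi_cIGF1R its log2 fold change against DMSO_EV was -0.81 ± 0.11, also the closest to 0, although at these low levels it kept just 37.5% of its control mean, against 50.6% for WDR75. WDR3 and NOP14, which join the processome with the U3 particle or shortly after, also overlapped between the treated groups, at -0.16 ± 0.11 and -0.24 ± 0.12. UTP18, of the same complex as WDR3, and the helicase DDX10 fell between the treated groups by 0.32 and 0.28 on the log2 scale. Over the alternatives the adjusted p of these calls reached 0.0882 for UTP18 and 0.120 for DDX10, and both were lost without Osi_Lin_EV replicate 1, without Osi_cIGF1R replicate 1 and without Osi_cIGF1R replicate 2. In all, the call of UTP18 was lost under 6 of 21 alternatives and that of DDX10 under 11 of 20. For DDX10 these included median-of-ratios rescaling, quantile normalization, no filter, a pseudocount of 5 and leaving out Osi_Lin_EV replicate 2 or 3. HEATR1, NOP14 and UTP18, like NHP2, overlap a gene of the other strand (LGALS8, NOP14-AS1, MBTD1 and RMND5B), whose reads cannot be told apart without strand.

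The 4 late factors of the small subunit, which act on the particle after the processome, included both BYSL, among the lowest of the 47 genes in Osi_cIGF1R, and NOB1, which did not pass the threshold in Osi_Lin_EV. BYSL, a factor that stays on the particle until the cytoplasm (chr6:41908759-41933046), was at 14.7, 17.3 and 17.2 FPKM in DMSO_EV, 7.89, 6.95 and 5.43 in Osi_Lin_EV and 2.75, 2.33 and 2.57 in Osi_cIGF1R. It kept 15.5% of its control mean in Osi_cIGF1R, and the treated groups differed by a log2 fold change of -1.12 ± 0.12. Its annotated span overlaps MED20 on the other strand, which was at 7.42, 8.32 and 9.92 FPKM in the 3 groups. RRP12, an export factor, fell by 1.16 and 1.75 on the log2 scale. LTV1, which leaves the particle in its last steps, fell by 1.05 and 1.40, and its difference between the treated groups, -0.36 ± 0.12, was lost under 5 of 21 alternatives, among them no filter and leaving out Osi_cIGF1R replicate 1 or 2 (highest adjusted p 0.0963).

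NOB1, the endonuclease that cuts the final end of small subunit ribosomal RNA (chr16:69741871-69754926), did not share this pattern. It was at 24.0, 27.4 and 29.6 FPKM in DMSO_EV, 28.6, 28.9 and 25.9 in Osi_Lin_EV and 17.3, 15.1 and 17.6 in Osi_cIGF1R. The control and Osi_Lin_EV libraries overlapped, with a log2 fold change of 0.04 ± 0.10 (95% confidence interval -0.17 to 0.26), while every Osi_cIGF1R library lay below both. NOB1 was lower in Osi_cIGF1R by 0.67 ± 0.10 against DMSO_EV and by 0.71 ± 0.10 against Osi_Lin_EV.

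Of the 16 large subunit genes among the 47, 15 fell in Osi_Lin_EV, 16 in Osi_cIGF1R and 13 between the treated groups. The shares of all tested genes that were lower were 23.5%, 35.8% and 34.8% in that order. NOP16, an early factor (chr5:176383946-176388598), had the lowest log2 fold change of FPKM + 1 among the 47 genes in both comparisons with the controls. By percent of the control mean it was lowest in Osi_Lin_EV, at 26.5%, but in Osi_cIGF1R its 16.1% lay slightly above BYSL and RRS1. It was at 38.5, 38.6 and 35.2 FPKM in DMSO_EV, 9.76, 8.87 and 11.1 in Osi_Lin_EV and 6.03, 6.60 and 5.44 in Osi_cIGF1R. The 3 groups lay apart, with log2 fold changes of -1.82 ± 0.10 and -2.46 ± 0.10 against the controls. RRS1, which with RPF2 brings in a small ribosomal RNA and its proteins, kept 36.6% and 15.1% of its control mean. NOP2, a methyltransferase of large subunit ribosomal RNA, kept 43.3% and 20.5%. MRTO4, which holds the place of a stalk protein, kept 28.6% and 19.1%. PPAN, an early processing factor that the annotation also joins to P2RY11 in a read-through gene, kept 49.1% and 27.5%.

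The PeBoW complex, made of PES1, BOP1 and WDR12 and needed for processing of large subunit ribosomal RNA, had members at unequal levels. PES1 was at 49.4, 56.5 and 53.6 FPKM in DMSO_EV, 40.5, 41.3 and 37.3 in Osi_Lin_EV and 25.4, 26.3 and 31.9 in Osi_cIGF1R. BOP1 was at 40.1, 45.3 and 35.0, then 22.9, 23.9 and 22.5, then 9.41, 9.45 and 9.78 FPKM in the same groups. WDR12, at 1.56 to 1.91 FPKM in the controls, 0.696 to 0.864 in Osi_Lin_EV and 0.338 to 0.388 in Osi_cIGF1R, had far lower levels per length than its partners. All 3 genes stepped down from group to group without overlap. The step of BOP1 between the treated groups, by 1.19 ± 0.10 on the log2 scale, left 41.4% of the Osi_Lin_EV mean, close to the 41.1% of RRS1. PES1 kept 52.4% of its control mean in Osi_cIGF1R, while BOP1 kept 23.8% and WDR12 20.6%. SCX lies inside the annotated span of BOP1 and was at 6.98, 16.3 and 7.24 FPKM on average in the 3 groups, so reads assigned to BOP1 may depend on how shared positions were counted.

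The helicases and GTPases of the large subunit included DDX56, the other gene that did not pass the threshold in Osi_Lin_EV. DDX56, a helicase (chr7:44565804-44573908), was at 34.8, 33.8 and 31.1 FPKM in DMSO_EV, 27.5, 30.0 and 30.1 in Osi_Lin_EV and 15.4, 14.5 and 18.4 in Osi_cIGF1R. Its control libraries lay just above those with both inhibitors, a log2 fold change of -0.18 ± 0.10 that did not pass the threshold (adjusted p = 0.147), and the Osi_cIGF1R libraries lay well below both, by 1.01 ± 0.10 and 0.83 ± 0.10. DDX27, another helicase, had log2 fold changes of -0.33 and -0.60, and its call between the treated groups was lost under 4 of 21 alternatives, among them leaving out Osi_Lin_EV replicate 1 or Osi_cIGF1R replicate 2 (highest adjusted p 0.0638). DDX18 was at 13.8, 14.4 and 17.3 FPKM in DMSO_EV, 9.31, 8.86 and 8.51 in Osi_Lin_EV and 9.68, 10.6 and 11.4 in Osi_cIGF1R. Every Osi_cIGF1R library of DDX18 lay above every Osi_Lin_EV library, with a log2 fold change of 0.22 ± 0.10 (adjusted p = 0.0716). This difference passed the threshold under median-of-ratios rescaling, equal totals without mitochondrial genes, a fit of the compared groups only and without DMSO_EV replicate 3.

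The GTPases GNL2, GNL3 and GNL3L are related proteins of the large subunit path. GNL3, known as nucleostemin, was at 40.5, 36.4 and 42.1 FPKM in DMSO_EV, 21.3, 20.7 and 21.9 in Osi_Lin_EV and 13.8, 13.7 and 14.9 in Osi_cIGF1R, stepping down without overlap. GNL2 kept 69.7% and 52.7% of its control mean. GNL3L, at 1.44 to 1.71 FPKM in the controls, was between 0.839 and 0.881 FPKM in Osi_Lin_EV and between 0.911 and 0.973 in Osi_cIGF1R, which placed the cIGF1R libraries slightly above those with both inhibitors (0.06 ± 0.09, adjusted p = 0.557). NIP7, which helps process large subunit ribosomal RNA, overlapped between the treated groups at -0.06 ± 0.11. RRP1B, a further large subunit factor, had log2 fold changes of -0.44 and -0.80 against the controls. Its call between the treated groups was lost under 5 of 21 alternatives, among them no filter and leaving out Osi_Lin_EV replicate 1 or Osi_cIGF1R replicate 3 (highest adjusted p 0.0641).

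The 3 general nucleolar proteins went separate ways between the treated groups. NPM1, nucleophosmin, an abundant histone and ribosomal protein chaperone (chr5:171387116-171410900), was at 728, 674 and 812 FPKM in DMSO_EV, 474, 456 and 455 in Osi_Lin_EV and 178, 179 and 222 in Osi_cIGF1R. It fell by 0.67 ± 0.12 on the log2 scale with both inhibitors and by 1.93 ± 0.12 in Osi_cIGF1R, and between the treated groups by 1.26 ± 0.12. That last fall was the largest of the 47 genes on log2(FPKM + 1), while by percent of the Osi_Lin_EV mean BYSL (37.7%), RRS1 (41.1%) and BOP1 (41.4%) lay below NPM1 (41.8%). RefSeq lists 50 pseudogenes of NPM1, of which 36 had a row and summed to 35.8, 22.8 and 9.20 FPKM on average in the 3 groups, so some of its reads could have been split among copies. DDX21, a helicase that links RNA polymerases and ribosomal RNA processing, was at 17.7, 22.7 and 31.0 FPKM in DMSO_EV, 9.81, 8.26 and 6.65 in Osi_Lin_EV and 8.67, 8.64 and 7.91 in Osi_cIGF1R. Its controls spread widely and its treated groups overlapped, with 0.04 ± 0.18 between them.

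NCL, nucleolin, which binds ribosomal RNA precursors (chr2:231453531-231464484), was at 130.0, 139 and 163 FPKM in DMSO_EV, 57.0, 56.9 and 53.1 in Osi_Lin_EV and 63.5, 65.1 and 72.5 in Osi_cIGF1R. All 3 Osi_cIGF1R libraries lay above all 3 Osi_Lin_EV libraries, the reverse of most assembly genes, with a log2 fold change of 0.26 ± 0.10 (limma adjusted p = 0.043). That call was lost under 11 of 21 alternatives, with adjusted p between 0.0067 and 0.134, among them the fits without DMSO_EV replicate 2 and without each treated library in turn. Against the controls NCL fell by 1.35 ± 0.10 and 1.09 ± 0.10, with no overlap.

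**Figure D4:**
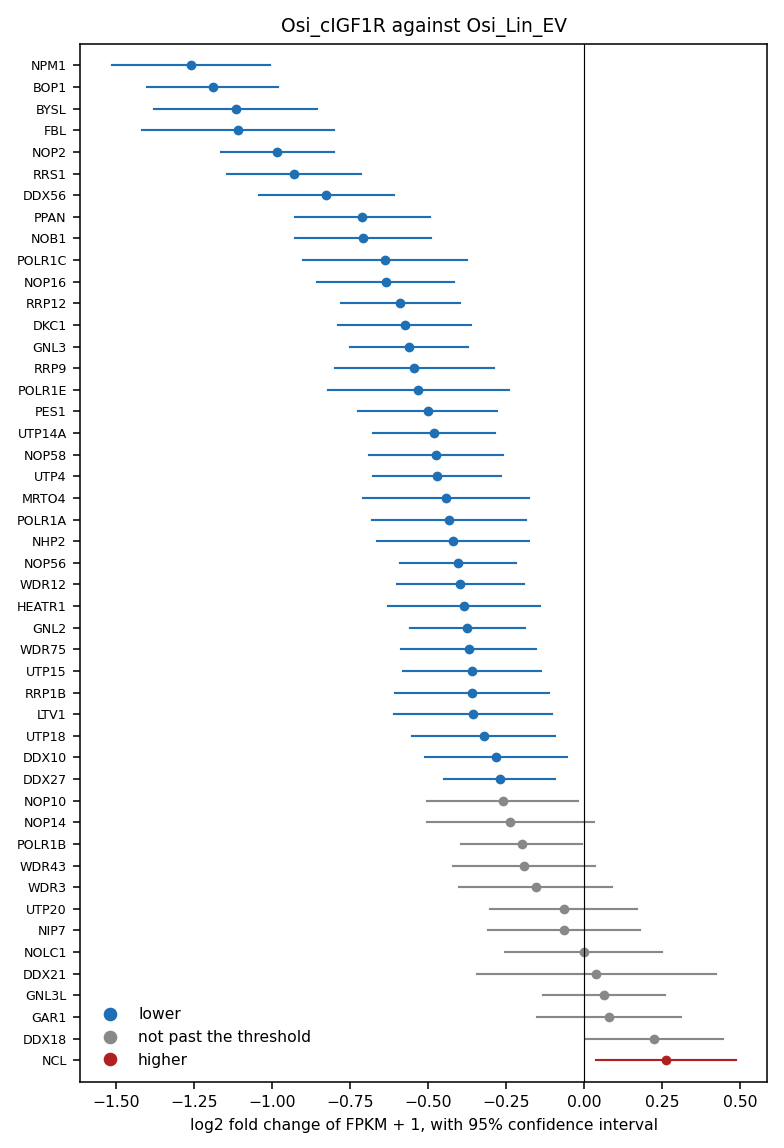
Log2 fold change of FPKM + 1 between Osi_cIGF1R and Osi_Lin_EV for each of the 47 genes, with 95% confidence intervals, coloured by limma's call. NPM1 at -1.26 is at the top, 34 genes are lower, 12 did not pass the threshold, and NCL at 0.26 is higher.

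By class, the median log2 fold change against DMSO_EV was lowest for box C/D snoRNPs and general nucleolar proteins in Osi_Lin_EV (-1.34 and -1.35) and for box C/D snoRNPs in Osi_cIGF1R (-2.0). It was closest to 0 for RNA polymerase I, at -0.59 and -0.94. The processome stood at -0.64 and -0.97, the large subunit at -0.72 and -1.01, box H/ACA snoRNPs at -1.10 and -1.52 and the late small subunit at -1.10 and -1.58. These classes hold 3 to 16 of the 47 genes and not every protein of a particle. They overlapped in range, and differences between them were not tested. The medians are of log2(FPKM + 1), a scale that understates the change of low genes. Of RNA polymerase I, POLR1A, POLR1B and POLR1E averaged 4.25, 3.45 and 5.56 FPKM in the controls and kept 41.4%, 41.4% and 43.3% in Osi_cIGF1R. Classes were not ranked by percent of the control mean, where the order can differ.

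Several of these genes also carry snoRNAs in their introns, the guide RNAs of the particles described above. In the RefSeq annotation, 8 of the 47 genes (17.0%) had a snoRNA gene within their span, against 3.33% of 13153 tested genes with a position. NOP56 and GNL3 held 5 each, NOP58 held 4, NCL and WDR43 held 3 each, DKC1 and PPAN held 2 each and UTP20 held 1, or 25 in all. The median log2 fold change of the 8 hosts was -1.30 in Osi_Lin_EV and -1.55 in Osi_cIGF1R against DMSO_EV, and that of the other 39 genes was -0.70 and -1.01. Both sets spanned a wide range, with -1.82 and -2.46 reached by NOP16, which holds none. A similar split by the E-box gave medians of -1.05 and -1.40 for the 15 genes with CACGTG, shown above for FBL and others, and of -0.70 and -1.01 for the 24 without, again with overlapping ranges. These splits are descriptions without a test.

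Other genes of ribosome assembly gave a wider comparison. A list of 97 further genes from textbook knowledge of the pathway, also chosen with earlier results of these data known, had 96 tested. In Osi_Lin_EV against DMSO_EV, 70 of them were lower and 4 higher, with a median log2 fold change of -0.43. The shares over all tested genes were 23.5% lower and 29.0% higher, with a median of 0.05. In Osi_cIGF1R against DMSO_EV 76 of the list were lower and 6 higher, with a median of -0.72. Over all tested genes these were 35.8%, 33.1% and -0.03. Between the treated groups 41 of the list were lower and 7 higher, with a median of -0.19. Over all tested genes these were 34.8%, 25.9% and -0.09. Median-of-ratios rescaling changed the split of the list to 33 lower and 13 higher. The shares over all tested genes under this rescaling are not given here, so whether the list differed from them is left unsaid. The order of the 3 groups seen in 35 of the 47 genes was seen in 38 of these 96. It was shown by 10.6% of all tested genes.

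EBNA1BP2, a large subunit factor, had the lowest log2 fold change of FPKM + 1 of this list in both comparisons with the controls, at 68.9, 75.2 and 81.3 FPKM in DMSO_EV, 28.0, 26.9 and 25.2 in Osi_Lin_EV and 15.0, 15.4 and 17.6 in Osi_cIGF1R. In Osi_Lin_EV it was followed by BRIX1 (-1.30) and PAK1IP1 (-1.28), both of the large subunit. In Osi_cIGF1R it was followed by the processome gene DCAF13 (-1.96) and NIFK (-1.86), a partner of Ki-67. By percent of the control mean POLR1G, a subunit of RNA polymerase I at 3.13 FPKM in the controls that was picked after its values were seen, lay lower, at 29.1% and 13.5% against 35.5% and 21.3% for EBNA1BP2. DCAF13 (-0.93), TAF1C (-0.84), a subunit of the selectivity factor of RNA polymerase I, and NIFK (-0.83) had the lowest log2 fold changes of FPKM + 1 between the treated groups. By percent of the Osi_Lin_EV mean NLE1, a large subunit factor also picked after its values were seen (38.8%), and POLR1G (46.3%) lay below DCAF13 (49.0%). RIOK2, a kinase of the late small subunit, rose in Osi_Lin_EV by 0.63 ± 0.10 on the log2 scale, and NOP53 and POLR1D rose by 0.52 and 0.39.

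Genes of the list that rose in Osi_cIGF1R were led by EFL1, a GTPase of the last step of large subunit maturation. It was at 3.47, 4.26 and 4.31 FPKM in DMSO_EV, 4.09, 4.15 and 3.37 in Osi_Lin_EV and 10.4, 11.0 and 11.1 in Osi_cIGF1R. The Osi_cIGF1R libraries stood far above the other 6, which overlapped, with log2 fold changes of 1.24 ± 0.10 against DMSO_EV and 1.29 ± 0.10 against Osi_Lin_EV. RIOK3, a kinase related to RIOK2, and UBTF, the factor that keeps ribosomal DNA open for transcription, rose in Osi_cIGF1R against DMSO_EV by 0.56 and 0.48. UTP23 and FCF1, related proteins of the processome, were higher in Osi_cIGF1R than in Osi_Lin_EV by 0.42 and 0.41 on the log2 scale.

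**Figure D5:**
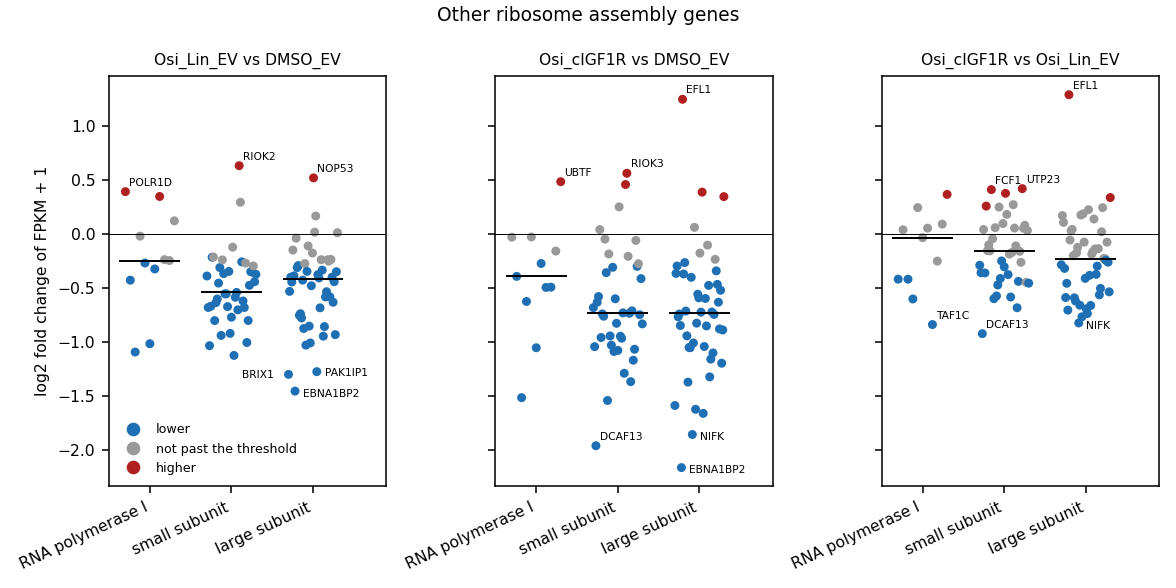
Log2 fold change of FPKM + 1 for the 96 other tested ribosome assembly genes in the 3 comparisons, by class, coloured by limma's call, with class medians as lines. Most points lie below 0 in the comparisons with DMSO_EV, where 70 and 76 genes were lower, against 23.5% and 35.8% of all tested genes. EFL1 stands alone near 1.2 to 1.3 in the panels with Osi_cIGF1R.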

How the data were processed

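Levels were read from the deposited table of 9 H1975 RNA-seq libraries. Another 12 libraries, of circular RNA, were not analysed here. No unit is named in the table, and fractional values with unequal totals point to FPKM computed by the authors. The submitters' processing notes name hg38, edgeR, STAR and Bowtie2 2.1.0 without saying what each did. For counter, annotation, strand setting and filters, the method is not given in the sources used here. FPKM is a share of a library, so large changes in a few transcripts shift the others.

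Values were tested as log2(FPKM + 1), a pseudocount of 1, with limma 3.58.1 in R 4.3.3 (group only, trend and robust variance), in 1 fit over 9 libraries and 13775 genes at 1 FPKM or more in 3 or more libraries. P-values were adjusted by Benjamini-Hochberg over all of these, threshold 0.05. The step was tested on simulated data in which few genes changed, none of them near 1 FPKM, and all by large amounts. That simulation does not bear on low genes or small changes. The 47 genes, the role classes and the other gene lists were chosen with earlier results of these data known. All 47 could be named. Per comparison and class, those with the largest and smallest absolute log2 fold change and those not called or against their class were described, and of the other assembly genes the 3 largest falls and rises. AFG2A, listed under its older symbol, was not tested, and LUM, PDGFRA and KDR were not analysed here. Promoters and positions are RefSeq's on GRCh38.p14. POLR1E, NOP58, NOLC1, RRP12, BOP1, RRP1B, RRS1 and DDX18 had no promoter entry in the table used. Motifs were exact matches on both strands. Alternatives were limma without trend, other scalings, filters and pseudocounts, compared groups only, a replicate block, a minimum log2 change of 1, and leaving out libraries. Figures were drawn with matplotlib 3.10.9 in Python 3.11.15.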

Additional observations from a re-analysis of the deposited data

How the results depend on the processing

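No assembly gene that was called changed direction under any alternative. A pseudocount of 0.1 gave medians of the 47 genes of -0.91, -1.45 and -0.51 (Osi_Lin_EV and Osi_cIGF1R against DMSO_EV, then Osi_cIGF1R against Osi_Lin_EV), and 5 gave -0.64, -0.90 and -0.24. A filter at 5 FPKM, passed by 39 of the 47 genes, gave medians of -0.94 and -1.40 against DMSO_EV. Over all genes it left 3238 lower in Osi_cIGF1R against DMSO_EV and 3148 against Osi_Lin_EV. Median-of-ratios rescaling gave -0.34 between the treated groups for the 47 genes and -0.02 over all genes (-0.01 with no filter), with 13 other assembly genes higher. The count of the 47 genes higher between the treated groups was 2 under that rescaling, under equal totals without mitochondrial genes and with the compared groups only, and 0 with no filter. Without DMSO_EV replicate 2 and Osi_cIGF1R replicate 1 it was 0. The median of Osi_cIGF1R against DMSO_EV was then -1.38 over the 44 genes that passed the filter. No filter left 2 other assembly genes higher in Osi_Lin_EV.

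With a minimum log2 change of 1, in the order of the comparisons above, 503, 1433 and 907 genes were higher and 763, 1571 and 603 lower. Of the 47 genes 19, 28 and 4 were lower and 0 higher between the treated groups, and of the other assembly genes 10, 26 and 0 were lower and 0, 1 and 1 higher. Leaving out single libraries gave 41 to 45, 44 to 47 and 30 to 34 of the assembly genes lower, and 0 to 2 higher between the treated groups. Without any 1 of the DMSO_EV libraries, 44 of the 47 genes passed the filter, and all 44 were lower in Osi_cIGF1R against DMSO_EV. The median in Osi_cIGF1R against DMSO_EV ran from -1.41 (without DMSO_EV replicate 1, over 44 genes) to -1.12 in these fits. With all libraries, the median of those 44 genes was -1.35. Other assembly genes higher were 2 to 4 in Osi_Lin_EV, with 2 without Osi_Lin_EV replicate 3, and 3 to 10 between the treated groups, with 3 without Osi_Lin_EV replicate 3 and 4 without Osi_cIGF1R replicate 3.

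Deviations of libraries from their group mean had r of -0.315 to 0.0358 for the same replicate number and -0.155 to 0.329 for different numbers. Deviations of 3 libraries around their own mean depend on each other, so these r cannot decide whether the numbers pair the libraries. A replicate block left 45, 47 and 34 of the 47 genes lower and 0 higher between the treated groups. Depth is unknown, which limits statements on genes near 1 FPKM.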
